A study of Homo sapiens with 6 samples.

Results

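HCC827 is an established non-small cell lung cancer line labelled as EGFR mutant, and the comparison asks how its transcripts stood after a short block of the EGFR kinase. It rests on 2 of the 6 Clarion S arrays of the study, chosen by the cell line in their titles. One is a control array, and the other is from cells given 0.01 µM erlotinib, a small-molecule inhibitor of the EGFR kinase, for 6 hours. The other 4 arrays serve for comparison: a control and an erlotinib array of PC-9, a further EGFR-mutant line, at the same dose and time, and a control and an EGF array of H322, a line with wild-type EGFR, given the ligand at 100 µg/ml for 6 hours (the unit is the one in the labels). The growth protocol puts TNFa into the medium without saying whether control cultures had it, so an effect of TNFa and an effect of erlotinib cannot be separated if they had not. There was 1 array per condition, so no difference in HCC827, and none between the lines, could be tested, and no p-value is given.

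EGFR is a receptor tyrosine kinase that drives the RAS-RAF-MEK-ERK cascade and the PI3K-AKT cascade. ERK turns on early transcription factors, among them the AP-1 family, together with its own inhibitors, the DUSP phosphatases and the Sprouty and SPRED proteins. AKT keeps FOXO transcription factors out of the nucleus and supports glucose uptake and ribosome production, and lung adenocarcinoma cells with mutant EGFR depend on these arms for growth and survival.

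Signals are given as log2(intensity + 1) and called log2 signals. A difference is the log2 signal with erlotinib minus that of the control, so that 1 is a doubling, and each pair of levels is written with the control first. A gene was taken as above background where it reached the 95th percentile of the array's 612 negative controls, called the limit, which was 7.27 on the HCC827 control array and 6.92 on the HCC827 erlotinib array. Of 17687 named genes 49.7% and 52.4% reached it there, against 48.8% to 51.3% on the other arrays. A gene above the limit on 1 array only has a bound, written as "at least". RNA from whole cultures cannot tell fewer cells with a transcript from less transcript per cell. The deposited medians of the 6 arrays lie between 7.22 and 7.30 on the log2 scale, so a shift common to the bulk of transcripts may have been scaled away.

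The label was checked against markers. All 12 epithelial markers were above the limit on both HCC827 arrays, with EPCAM at 15.71 and 15.86 and the E-cadherin gene CDH1 at 14.16 and 14.23, and their summed signal was 18.82 and 18.74 on the log2 scale. Of 8 lung lineage markers 3 passed in control and 4 with erlotinib (summed log2 signal 13.32 and 13.78). The lung transcription factor NKX2-1 was at 10.09 and 11.21 and the lung protease NAPSA at 11.83 and 12.29, and both were below the limit on all 4 arrays of PC-9 and H322. The surfactant genes SFTPC (4.19 and 4.17) and SFTPB (4.61 and 4.81) were below the limit in HCC827. Of 8 mesenchymal markers 1 passed in control and 2 with erlotinib (summed log2 signal 10.69 and 11.03), and vimentin (VIM) was below the limit at 6.31 and 6.74. Of 9 leukocyte markers 1 and 2 passed (13.27 and 13.70), nearly all of it CD68 (13.22 and 13.66), while the pan-leukocyte gene PTPRC was below the limit at 4.99 and 4.57. Of 8 fibroblast and endothelial markers 1 and 2 passed (9.11 and 8.92), and COL1A1 was below the limit at 5.24 and 4.87.

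In HCC827, among the feedback inhibitors of ERK, cytokines, EGFR ligands and ribosome factors, more passed 2-fold lower than higher with erlotinib, and among growth arrest genes more were higher. The AP-1 and ETS lists did not follow this, with 2 higher and 1 lower, and 1 each way. All these lists were chosen with earlier results of these data known. Each list count here and below is to be read beside the shares over all genes, given next. Among 9378 genes above the limit on at least 1 array, 383 were at least 2-fold higher (4.08%) and 305 at least 2-fold lower (3.25%). With the limit moved to the 99th percentile of the negative controls, at 9.74 and 9.86, these counts were 168 and 136.  FOSL1, an AP-1 subunit, stood lowest at 36.1-fold lower, and TCP11L2 stood highest at 15.7-fold higher. At 4-fold or more there were 31 higher and 39 lower genes, and at 8-fold or more 3 and 6. Which direction held the majority turned with scaling: 55.7% of the calls were higher as deposited, 46.2% (308 higher and 358 lower) with each array centred on its median, and 47.9% (316 and 344) after quantile normalization. The median difference of the 8691 genes above the limit on both arrays was 0.06.

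The stricter limit also ended calls of genes described here. Among the members of the gene lists and the extremes of each side, 41 of 74 higher and 43 of 89 lower genes still passed 2-fold under it. The higher genes that did not were ABHD4, AKR1C1, ATF3, BCL2L14, BMP2, BMP3, CASP10, CCL5, CDT1, CHIA, CNNM2, CXCL11, CXXC5, CYLD, CYP1A1, DDB2, DNAJC12, DUSP10, EPS8L3, ID3, IKZF2, JUND, NUPR1, PGM2L1, PIK3IP1, RNF43, SLC2A12, SNPH, STAU2-AS1, TP53INP1, TP53INP2, TSC22D3 and YPEL2. The lower genes that did not were BHLHE41, BYSL, CCNE1, CDKN1A, DDX10, DKK1, DUSP7, EGR1, EPHA2, FJX1, GLIPR1, GPR39, HK2, IL6, JCAD, KIRREL1, KRTAP2-3, KRTAP2-4, LIF, LONRF3, MMP1, MYBBP1A, NIPAL1, NOCT, NOP2, NRG1, OSGIN1, PDCD1LG2, PNO1, POLR1B, POLR1E, POLR3G, RRP9, SEMA7A, SLC25A22, SLC6A14, SLCO2A1, SOX9, SPRY4, SQLE, TGFA, THBS1, TRIB3, VLDLR, WDR12 and WWTR1. By list, the quiescence genes kept 8 of 12 higher calls, the ribosome biogenesis factors 9 of 18 lower calls, the cytokines 3 of 5, the ERK feedback inhibitors 3 of 5 and the EGFR-family ligands 1 of 3. FOSL1, DUSP6, TCP11L2, YPEL3 and KLHL24 passed under both limits, FOSL1 then with a bound of -3.78 and KLHL24 with a bound of 1.49.

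Some negative controls, probe sets meant to have no transcript to measure, also stood apart between the 2 HCC827 arrays. Of the 612, 42 were above the limit on at least 1 HCC827 array, and 16 of these were 2-fold apart, 8 in each direction. These 42 were picked by their signal, so their spread is no error rate for genes. Among genes, the 1191 whose brighter array was within 1 of its limit held no higher and 12 lower calls. That split follows from the unequal limits, 7.27 in control and 6.92 with erlotinib, which allow no higher call there. With 1 limit for both arrays HCC827 had 293 lower calls in place of 305, and still 383 higher. The 3780 genes at least 4 above their limit held 152 higher and 119 lower calls. Only 4 negative controls were that bright, and 2 of them were 2-fold apart. Of negative controls 1 to 2 above the limit 6 of 10 were 2-fold apart, and of those 2 to 4 above it 7 of 10. Among genes in these ranges 8.51% and 9.5% were 2-fold apart. A call of a single gene thus carries no measured error.

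**Figure D1:**
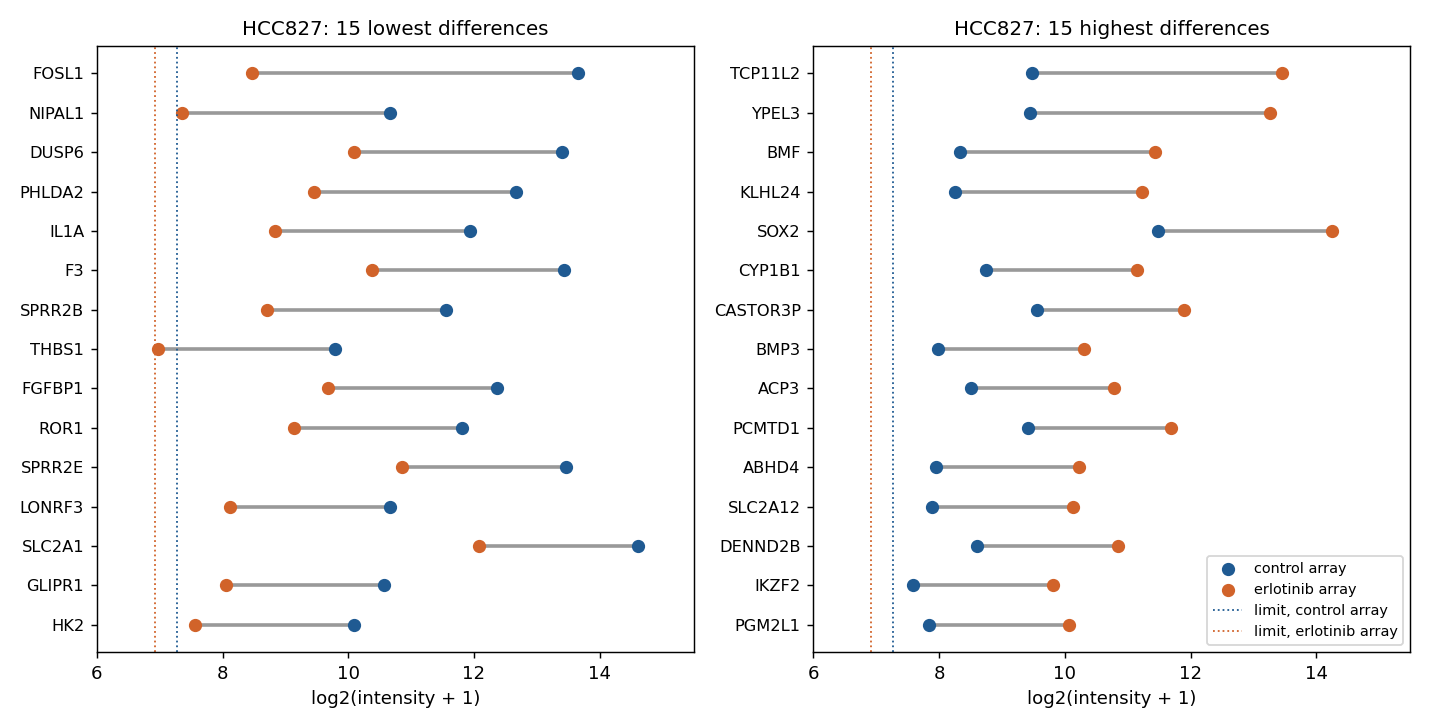
Log2 signal (x axis) of the 15 genes with the lowest (left) and the 15 with the highest difference (right) among genes above the limit on both HCC827 arrays. Blue points are the control array, orange points the erlotinib array, and dotted lines the limit of each array. FOSL1 goes from 13.65 to 8.47 and TCP11L2 from 9.48 to 13.45, and THBS1 ends at 6.97, close to the limit of 6.92.

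Among feedback inhibitors of ERK more were lower than higher. DUSP6, the phosphatase of ERK itself, was at 13.40 and 10.09, 9.91-fold lower. DUSP7, of the same group, was at 8.99 and 7.03, and SPRY4 at 8.16 and 6.95, both ending just above the limit. SPRED2, an inhibitor of RAF activation, was at 11.09 and 9.57, and ERRFI1, which binds and inhibits EGFR, at 16.61 and 15.23. These 5 were the lower members among 14 above the limit, and 1 was higher: DUSP10, a phosphatase of the stress kinases p38 and JNK, at 9.04 and 10.14. The list's median was -0.96 over 12 genes above the limit on both arrays, and -1.43 over 11 in PC-9.

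Several feedback genes stood much closer to their control level in HCC827 than in PC-9. DUSP5 had a difference of -0.98 in HCC827 (11.35 and 10.37) and -3.06 in PC-9. DUSP4 gave -0.94 and -2.71, SPRY1 -0.34 and -2.24, and SPRED1 -0.24 and -1.43. In HCC827 none of the 4 passed 2-fold, with DUSP5 and DUSP4 just short of it, and in PC-9 all did. The 4 were named because they stood at least 1 apart from PC-9, so this split follows in part from that choice. Whether the lines differ was not tested.

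The AP-1 list shows 1 subunit far from the rest. FOSL1, which encodes FRA1, was at 13.65 and 8.47 in HCC827 and at 12.87 and 7.78 in PC-9, so the line's lowest gene had nearly the same difference in both (-5.17 and -5.08). JUN was at 11.97 and 10.99, short of 2-fold, with -2.09 in PC-9. ATF3, a stress-induced subunit, was at 7.33 and 8.82, and JUND, known to oppose proliferation, at 9.45 and 10.58, and both passed 2-fold upward. Of 7 AP-1 genes above the limit 2 were higher and 1 lower, with a median of 0.51.

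A promoter is shown here for PLAUR, the urokinase receptor and a known AP-1 target. It was picked by hand among genes lower in both EGFR-mutant lines, and it holds the AP-1 letters. Whether AP-1 had a part in its level was not tested. PLAUR was at 12.94 and 11.37 in HCC827, 2.98-fold lower, and at 12.74 and 11.25 in PC-9. The sequence is the 250 bases before the RefSeq start, minus strand, chr19:43670170-43670419 in GRCh38.p14. Capitals mark the AP-1 letters TGACTCA, read here on the opposite strand as TGAGTCA, which begin 186 bases before the start.
PLAUR: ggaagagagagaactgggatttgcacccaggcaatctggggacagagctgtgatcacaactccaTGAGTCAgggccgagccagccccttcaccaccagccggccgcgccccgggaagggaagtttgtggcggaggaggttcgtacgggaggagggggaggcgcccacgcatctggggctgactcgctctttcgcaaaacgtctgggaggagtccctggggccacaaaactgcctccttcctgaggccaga
The AP-1 letters, on either strand of the same window, were in 13 of 240 promoters of lower genes (5.42%), in 15 of 308 of higher genes (4.87%), in 209 of 7869 of genes above the limit (2.66%) and in 452 of all 14250 (3.17%). Thus the lower and the higher genes held them at like shares. A match is a run of letters and no measured binding site.

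Among other early transcription factors 2 passed 2-fold, both lower. EGR1, a zinc finger factor that ERK induces, was at 9.83 and 7.87, 3.91-fold lower, and below the limit on both PC-9 arrays. IER3 was at 14.81 and 13.78. These were the 2 lower members of 10 early transcription factors above the limit, none was higher, and the median was -0.58. Over all genes above the limit 3.25% were lower and 4.08% higher. EGR1 lost its call at the 99th percentile. MYC, the growth regulator, was at 13.90 and 13.33 in HCC827 and at 12.73 and 10.42 in PC-9. Its difference was -0.56 in HCC827, short of 2-fold, and -2.31 in PC-9.

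Of the ETS factors 1 was lower and 1 higher. ETS1 was at 14.43 and 11.94 in HCC827, 5.62-fold lower, and at 12.60 and 12.19 in PC-9. ETV5, a PEA3 factor induced by ERK, showed the converse, at 9.54 and 9.59 in HCC827 and 12.52 and 9.16 in PC-9, with the PC-9 control the one array that stood high. ETV4 had differences of -0.11 and -1.53. ELF3, an epithelial ETS factor, was at 11.99 and 13.40, 2.66-fold higher, and had 2.61 in PC-9. Of 11 ETS genes above the limit 1 was higher and 1 lower, beside 4.08% and 3.25% among all such genes. The median was 0.23.

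EGFR-family ligands were lower, with a single exception. EREG (epiregulin) was at 13.41 in control and 5.32-fold lower with erlotinib, and was below the limit on both PC-9 arrays. TGFA was at 9.11 and 7.30, and NRG1, a ligand of ERBB3 and ERBB4, at 9.05 and 7.77. BTC, the remaining one of 4 above the limit, was at 8.10 and 8.12, and the median of the list was -1.55. Among 7 receptor kinases above the limit, ERBB3 was at 12.08 and 14.11, 4.09-fold higher, and EPHA2 at 10.81 and 8.34, 5.54-fold lower. EGFR was at 15.27 and 14.77, against 12.68 and 12.71 in PC-9, and the list's median was 0.37.

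Among the cytokines 5 genes passed 2-fold, all lower, the interleukin 1 genes IL1A and IL1B among them. IL1A was at 11.94 and 8.83, 8.63-fold lower, and below the limit on all 4 arrays of PC-9 and H322. IL1B was at 15.52 and 13.26, and in PC-9 at 7.84 in control and below the limit with erlotinib. STC1, a secreted glycoprotein hormone, was at 12.14 and 9.90, and IL6 at 10.25 and 8.79. LIF, of the interleukin 6 family, was at least 4.37-fold lower, from 9.05 to 6.70, under the limit. These were the 5 lower members of 12 above the limit. None was higher, and the median was -0.68 (-0.69 in PC-9). It was -1.14 with the limit at the 90th percentile.

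Among the 15 lowest genes were also F3, FGFBP1, ROR1 and 2 SPRR2 genes. F3, tissue factor and the starter of clotting, was at 13.44 and 10.38, 8.35-fold lower, and FGFBP1, a carrier of fibroblast growth factors, at 12.36 and 9.68. ROR1, a receptor-like kinase that binds WNT5A, was at 11.81 and 9.14. SPRR2B (11.55 and 8.71), SPRR2E (13.47 and 10.85) and SPRR2D (14.89 and 12.46) encode small proline-rich proteins of the cornified envelope. All 3 were lower in HCC827 and below the limit in PC-9 and H322, and as near-identical copies they may share signal. KRT16, a keratin of stressed epithelium, was at 12.13 and 10.03, the single lower gene of 6 keratins above the limit (median -0.42).

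The remaining extremes of the lower side have varied roles. PHLDA2, an imprinted pleckstrin-homology protein, was at 12.67 and 9.46, 9.29-fold lower. NIPAL1, a magnesium transporter, was at 10.66 and 7.35, and LONRF3, a RING finger protein, at 10.66 and 8.12. Both were also lower in PC-9, with differences of -2.31 and -2.61. SLC6A14, an amino acid transporter, was at 10.72 and 8.29, and below the limit in PC-9.

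In the list of glucose uptake and glycolysis 2 genes passed 2-fold, both lower. SLC2A1, the transporter GLUT1, was at 14.61 and 12.08, 5.78-fold lower, and hexokinase HK2 at 10.09 and 7.57, 5.73-fold lower. PFKFB3 (10.97 and 10.06), PDK1 (12.03 and 11.12) and PFKP (14.11 and 13.38) came next and did not pass 2-fold. The list held 2 lower and no higher genes of 18 above the limit, beside 3.25% lower and 4.08% higher among all such genes. Its median was -0.17, and HK2 lost its call at the 99th percentile. The glucose transporter SLC2A12, outside the list, was higher at 7.88 and 10.13. DDIT4, a brake on mTORC1, was at 13.93 and 11.76 in HCC827 and had a difference of -0.47 in PC-9. It was 1 of 4 lower members of the amino acid and ATF4 list, with STC2 (-1.73), TRIB3 (-1.51) and VLDLR (-1.01). NUPR1 (1.37) was the one higher of 24 in that list (median 0.03, which changed sign under other settings).

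Ribosome biogenesis factors, which process and assemble ribosomes in the nucleolus, held 18 lower genes. PNO1 was at 10.69 and 8.87, RRS1 at 11.01 and 9.38, and NOP16 at 12.80 and 11.25. The helicase DDX21 was at 13.60 and 12.11. Of 32 members above the limit 18 were lower and none higher, and 28 of the 30 above it on both arrays lay below 0, with a median of -1.03. PC-9 had 7 lower and a median of -0.62. POLR1E, a subunit of RNA polymerase I, stood apart between lines, with -1.42 in HCC827 and 0.24 in PC-9. Among 16 cholesterol and fatty acid genes SQLE (10.34 and 9.08) was lower, in PC-9 equal on both arrays at 13.63, and the median was -0.24.

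TCP11L2 and YPEL3, of the quiescence and growth arrest list, gave the 2 highest differences among genes above the limit on both arrays. TCP11L2 was at 9.48 and 13.45, and YPEL3, a yippee-family gene known to restrain growth, at 9.44 and 13.27, 14.2-fold higher. KLHL24, an adaptor of a ubiquitin ligase, was at 8.25 and 11.23, 7.89-fold higher. In the HCC827 control all 3 lay below their PC-9 control level (11.17, 13.24 and 11.51), and with erlotinib TCP11L2 passed the PC-9 erlotinib level of 12.76. TP53INP1, a p53-induced gene of autophagy, was at least 5.84-fold higher, from 7.24, under the limit, to 9.82. HBP1, a repressor of cell cycle genes, was at 11.84 and 13.94. TOB1, an antiproliferative gene, was at 10.56 and 11.99 in HCC827 and at 13.35 and 13.16 in PC-9. The quiescence list held 12 higher and no lower genes of 16 above the limit, with a median of 1.47 over 13 genes, against 6 higher and a median of 0.72 in PC-9. It was chosen with earlier results of these data known and holds TCP11L2, YPEL3 and KLHL24, so its count and median are not independent of these data.

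FOXO targets and PI3K brakes were higher in fewer members. BCL6, a transcriptional repressor, was at 11.08 and 13.19, PIK3IP1, an inhibitor of PI3K, at 7.38 and 9.24, and TXNIP, which lowers glucose uptake, at 12.54 and 14.19. TSC22D3 was at 8.33 and 9.54. These 4 of 15 above the limit were higher, none was lower, and the median was 0.95 (0.62 in PC-9). At the 99th percentile 2 of the 4 calls and a median of 0.55 remained.

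Promoters of TCP11L2 and HBP1 are shown because they hold the letters that FOXO factors are known to bind. Each is the 250 bases before the RefSeq start, plus strand, GRCh38.p14: chr12:106302483-106302732 for TCP11L2 and chr7:107168753-107169002 for HBP1. Capitals mark TGTTTAC, read here on the opposite strand as GTAAACA, which begins 232 bases before the start in TCP11L2 and 173 in HBP1.
TCP11L2: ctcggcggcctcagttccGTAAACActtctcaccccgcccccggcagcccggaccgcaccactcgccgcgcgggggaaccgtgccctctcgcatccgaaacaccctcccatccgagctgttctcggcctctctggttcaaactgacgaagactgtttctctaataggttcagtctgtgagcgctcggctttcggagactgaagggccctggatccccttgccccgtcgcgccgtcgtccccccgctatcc
HBP1: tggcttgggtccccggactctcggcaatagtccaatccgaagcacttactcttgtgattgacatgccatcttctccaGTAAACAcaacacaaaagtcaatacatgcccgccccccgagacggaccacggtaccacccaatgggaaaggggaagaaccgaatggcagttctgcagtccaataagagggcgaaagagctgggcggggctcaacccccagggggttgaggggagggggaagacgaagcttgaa
On either strand these letters were in 17 of 308 promoters of higher genes (5.52%), 5 of 240 of lower genes (2.08%), 158 of 7869 of genes above the limit on an HCC827 array (2.01%) and 314 of all 14250 (2.2%). The other 15 higher genes with them were BCL2L11, BCL2L14, CNNM3, DEPP1, DNAJC12, FBXO8, GRAMD1C, JMY, KLHDC2, PERP, RASSF6, SDCBP2, SWAP70, TMEM140 and TXNIP. In PC-9 9 of 106 promoters of higher genes held them (8.49%). The ETS letters CCGGAAGT were in 6 promoters of higher genes (1.95%), 11 of lower genes (4.58%) and 632 of genes above the limit (8.03%). The E-box CACGTG was in 6.82%, 10.4% and 9.21% of these sets, and the CRE letters TGACGTCA in 2.92%, 2.92% and 3.09%, both strands searched. No set of letters was tested, and no match says that a factor was bound.

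In the BCL2 family, 2 genes that promote apoptosis were higher and a survival gene lower. BMF, a BH3-only protein, was at 8.34 and 11.44, 8.57-fold higher, and BCL2L11, which encodes BIM, at 10.66 and 11.93. BCL2A1, a survival protein, was at 13.96 and 12.59, 2.58-fold lower, and below the limit in PC-9. BCL2L1, which encodes BCL-XL, was at 11.83 and 11.02 and did not pass. Of 13 above the limit 2 were higher and 1 lower, and the median of 0.24 changed sign under other settings. Of 10 death ligand and receptor genes, TNFSF10, the ligand TRAIL, was at 13.55 and 15.19 and the caspase CASP10 at 8.73 and 10.70, both higher, and the median was -0.02. BCL2L14, a further family member outside the list, was at least 3.74-fold higher.

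Cell cycle genes passed 2-fold in both directions in the G1 list, and only upward in the G2/M and replication lists. Among all genes above the limit 4.08% were higher and 3.25% lower. CCND1, cyclin D1, was at 14.49 and 12.41, 4.22-fold lower, with nearly the same difference in PC-9 (-2.14). CCNE1 was at 8.63 and 7.54. The CDK inhibitor CDKN1B, p27, was at 11.01 and 12.64, 3.10-fold higher, whereas CDKN1A, p21, was at 10.22 and 8.89. Of 12 G1 genes 1 was higher and 3 lower (median 0.05, which changed sign under other settings). All 23 G2/M genes were above the limit and 22 had a difference above 0, with a median of 0.54. CDC25C (1.63), CENPF (1.11) and KIF20A (1.04) were the 3 past 2-fold. In PC-9 22 of the 23 also lay above 0, with 1 past 2-fold and a median of 0.41. Of 19 replication genes CDT1 (9.49 and 10.61) was higher (median 0.04, which also changed sign). Of 13 p53 targets 2 were higher, TP53INP1 and DDB2 (1.15), and 2 lower, AEN (-2.14) and CDKN1A (median 0.14).

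**Figure D2:**
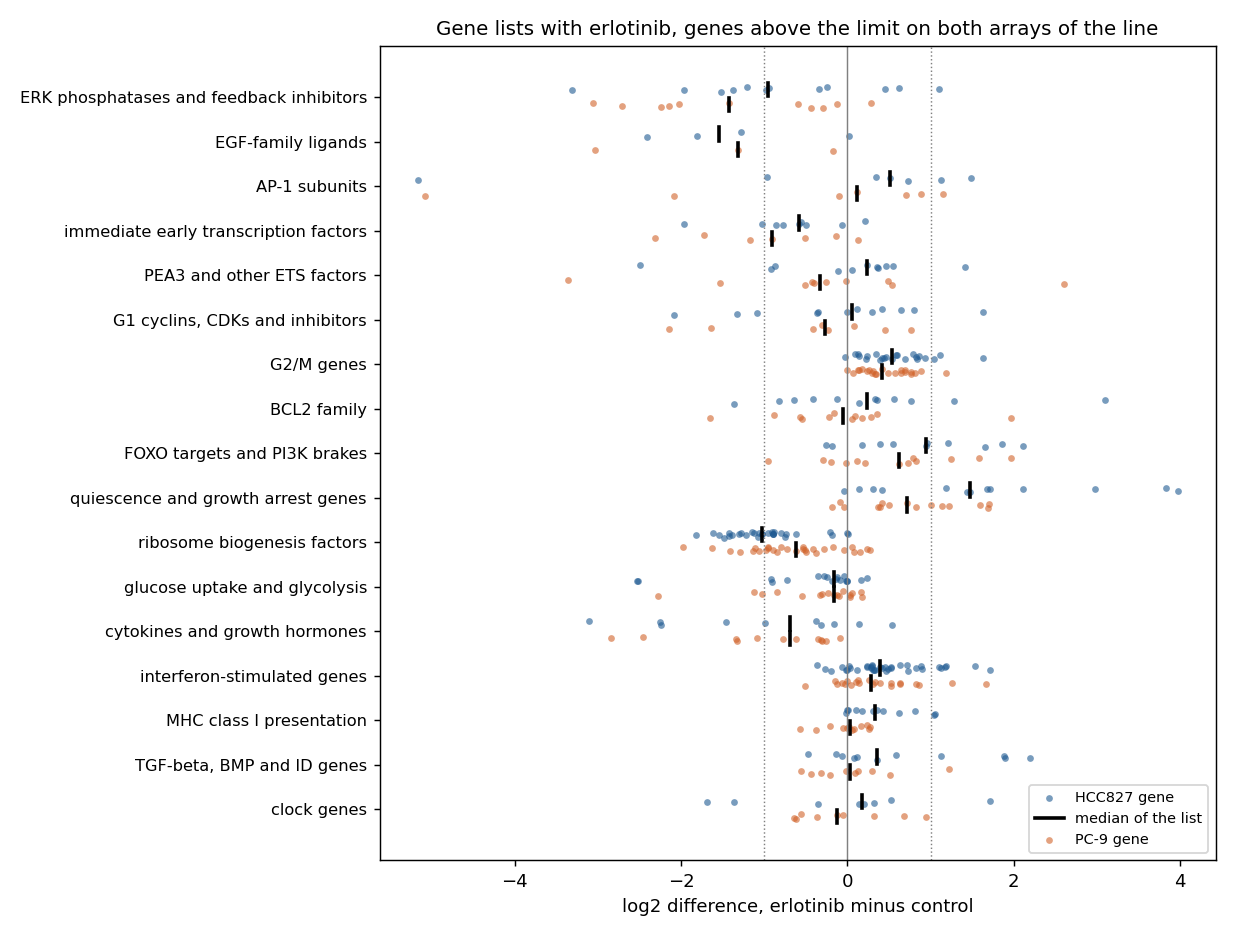
Log2 difference, erlotinib minus control (x axis), of the members of 17 gene lists above the limit on both arrays of a line, HCC827 in blue and PC-9 in orange. Black bars are list medians and dotted lines mark 2-fold. Quiescence genes lie to the right in HCC827 (median 1.47) and ribosome biogenesis factors to the left (median -1.03).

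Of the interferon-stimulated genes 6 passed 2-fold, all higher. CXCL10, a chemokine for T cells, was at 11.69 and 13.41, IFIT2 at 12.10 and 13.64, and OASL at 12.39 and 13.57. GBP2 was at 12.53 and 13.70, and it is the one of these with a larger difference in PC-9 (1.67). All 38 measured members were above the limit, 6 were higher and none lower, and the median was 0.39. Over all genes above the limit 4.08% were higher and 3.25% lower. Of 13 chemokines 3 were higher, CXCL10, CXCL11 (1.12) and CCL5 (7.80 and 9.29), and CXCL8, which attracts neutrophils, did not pass at -0.65 (median 0.15, which changed sign under other settings).

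Of the antigen presentation and checkpoint genes 6 passed 2-fold, 3 in each direction. HLA-E was at 13.06 and 14.11 and the immunoproteasome gene PSMB10 at 11.32 and 12.35, the 2 higher members of 12 MHC class I genes above the limit, with a median of 0.34 against 0.03 in PC-9. HLA genes share sequence, so HLA-E may hold signal of its relatives. CD274, which encodes PD-L1, was at 13.02 and 11.37, 3.14-fold lower, and PVR, a ligand of TIGIT, at 12.25 and 10.71. PDCD1LG2, PD-L2, was at least 2.87-fold lower. IDO1, the tryptophan-degrading enzyme, was at 12.13 and 13.95, 3.53-fold higher, and below the limit in PC-9. Of 11 checkpoint genes 1 was thus higher and 3 lower (median 0.21). Of 17 NF-kappaB targets CYLD (1.40) and REL (1.09) were higher and PTGS2 (-1.31) lower (median 0.23). Over all genes above the limit 4.08% were higher and 3.25% lower.

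SOX2, BMP3 and 4 genes of the TGF-beta, BMP and ID list were higher in HCC827. SOX2, a stem cell and airway transcription factor, was at 11.49 and 14.25, 6.78-fold higher, and in H322 near its HCC827 erlotinib level on both arrays (14.48 and 14.40). BMP2 was at 7.75 and 9.96, and its targets ID2 at 9.55 and 11.43, ID3 at 8.21 and 10.10 and ID1 at 11.75 and 12.88. These 4 of 11 genes of the TGF-beta, BMP and ID list above the limit were higher and none was lower (median 0.35). At the 99th percentile 2 of the 4 calls and a median of 0.11 remained. In PC-9 10 members of the list were above the limit, 1 of them higher. BMP2, ID1 and ID2 were below the limit on both PC-9 arrays, and ID3 had 0.51 there. BMP3 was at 7.99 and 10.30. NKX2-1, from the lung markers, was 2.18-fold higher.

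**Figure D3:**
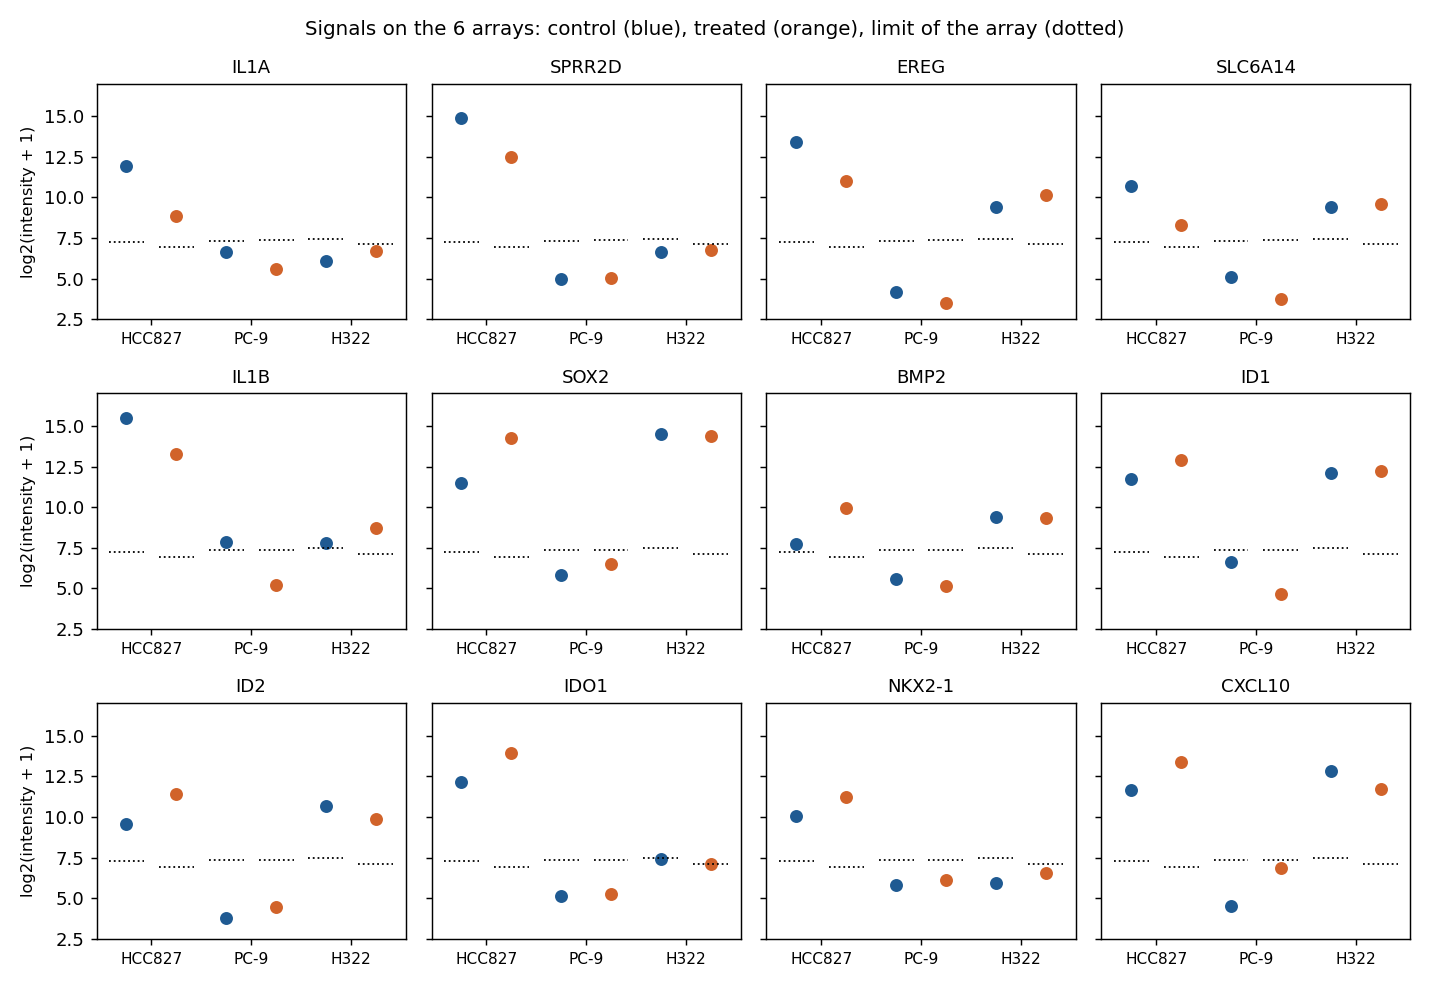
Log2 signal (y axis) of 12 genes on the 6 arrays, control in blue and treated in orange (erlotinib for HCC827 and PC-9, EGF for H322), with the limit of each array dotted. IL1A, SPRR2D, EREG, SOX2 and IDO1 are above the limit on both HCC827 arrays and below it on both PC-9 arrays. SOX2 is at 11.49 and 14.25 in HCC827.

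The other pathway lists are given by their counts, beside 4.08% higher and 3.25% lower among all genes above the limit. Of 12 YAP and TEAD genes F3, CCN1 (11.25 and 9.11) and WWTR1 (10.69 and 9.35), the co-activator TAZ, were lower (median -0.22). None of 8 NOTCH genes passed (median -0.30, which changed sign under other settings). Of 6 WNT genes DKK1, an inhibitor, was at least 2.62-fold lower, SOX9 had -1.35 and RNF43 1.17. The WNT median of 0.17 rests on 3 genes and ran from -0.61 to 0.67 across settings. None of 10 mucin and secretory genes passed (median 0.29). Of 9 urokinase and metalloproteinase genes PLAUR and MMP1 (at least 2.21-fold) were lower and MMP7 (11.30 and 12.31) higher. Their median was -0.10 and ran from -0.20 to 0.00 across settings. Of 9 clock genes NR1D2 (10.01 and 11.72) was higher, and the repressors BHLHE41 (9.16 and 7.47) and BHLHE40 (14.77 and 13.41) were lower (median 0.17). Of 11 NRF2 targets AKR1C1 (7.68 and 9.71) and AKR1C3 (9.88 and 11.47), near relatives that may share signal, were higher, and OSGIN1 (8.68 and 7.45) lower (median 0.17).

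Among the remaining highest genes, 2 are cytochrome P450 genes known as targets of the aryl hydrocarbon receptor. CYP1B1 was at 8.74 and 11.15, and CYP1A1 was at least 4.56-fold higher, from 6.22, under the limit, to 9.46. Neither had a like difference in PC-9, where CYP1A1 was below the limit. The glucose transporter SLC2A12 was at 7.88 and 10.13, the Ikaros-family factor IKZF2 at 7.59 and 9.82 and the acid phosphatase ACP3 at 8.51 and 10.79. PCMTD1 (4.83-fold), ABHD4 (4.80-fold), PGM2L1 (4.69-fold) and CASTOR3P (5.04-fold) complete the set of higher extremes with DENND2B, given below.

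Of genes above the limit on 1 HCC827 array only, SNPH had the largest bound. SNPH, syntaphilin, which anchors mitochondria, was at least 7.47-fold higher, from 4.90 to 10.17, and CHIA, a chitinase, at least 5.87-fold higher, from 7.26 to 9.83. EPS8L3 was at least 4.40-fold and DNAJC12, a co-chaperone, at least 3.62-fold higher, and STAU2-AS1, an antisense RNA that the probes may not separate from its partner, went from 6.20 to 9.59. All of these were below the limit on both PC-9 arrays. On the lower side FJX1 was at least 4.43-fold, SEMA7A at least 4.06-fold, SLCO2A1, a prostaglandin transporter, at least 3.84-fold and POLR3G at least 3.51-fold lower. KIRREL1 (at least 3.38-fold) and the near-identical hair keratin-associated genes KRTAP2-3 (at least 3.47-fold) and KRTAP2-4 (at least 2.98-fold) followed.

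Set against PC-9, HCC827 had more higher genes and shared a part of both lists. PC-9 had 131 of 9041 genes at least 2-fold higher (1.45%) and 265 lower (2.93%). Of the 383 higher genes of HCC827, 55 were higher in PC-9 too, which is 14.4% of the HCC827 list and 42% of the PC-9 list. Of the 305 lower genes 102 were lower in PC-9, 33.4% and 38.5%. A further 73 higher genes (19.1%) and 48 lower genes (15.7%) were below the limit on both PC-9 arrays. No gene was past 2-fold in opposite directions, except under other settings HCAR3, TRIB2 and SNAI2. For the 276 higher genes above the limit on all 4 arrays the median was 1.23 in HCC827 and 0.60 in PC-9, and 249 had the same sign (90.2%). For the 215 lower genes the medians were -1.29 and -0.85, and 204 had the same sign (94.9%). The HCC827 list was chosen on HCC827 values, so its medians there are larger in part by that choice. The PC-9 lower list of 200 such genes had -1.28 in PC-9 and -0.87 in HCC827. The PC-9 higher list of 86 such genes had 1.19 in PC-9 and 1.09 in HCC827. How much of each gap comes from the choice of list was not tested. Over all 7796 genes above the limit on the 4 arrays 67.8% had the same sign, and the differences correlated across genes at r = 0.58.

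The genes most below PC-9 in difference were led by THBS1. THBS1, thrombospondin 1, was at 9.79 and 6.97 in HCC827 and at 16.30 and 15.77 in PC-9, far brighter there on both arrays. GLIPR1 was at 10.57 and 8.05, against 15.47 and 15.05. NOCT, nocturnin, was lower in HCC827 (10.50 and 8.82) and stood higher with erlotinib in PC-9 (9.74 and 10.29). GPR39, a zinc-sensing receptor, had -1.88 and 0.12, JCAD -1.56 and 0.27, AMIGO2 -2.07 and -0.24 and CCN1 -2.14 and -0.31. The genes named here were lower in HCC827 and within 2-fold in PC-9. F3, the last of the 10 genes most below PC-9, was more than 2-fold lower in both lines.

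The 10 genes most above PC-9 in difference include TCP11L2 and YPEL3, which were higher in both lines and more so in HCC827 (3.97 and 3.83, against 1.59 and 1.70 in PC-9), and ETV5, described above. TNFSF15, a TNF-family ligand, was at 9.72 and 10.20 in HCC827 and at 10.90 and 7.71 in PC-9. DNMBP had 0.73 and -1.65, MPZL2 0.38 and -1.87, and the decoy TRAIL receptor TNFRSF10D -0.25 and -2.45. G0S2, an inhibitor of fat breakdown, was lower in both, with -1.04 and -3.18. DENND2B, a Rab exchange factor, was higher in HCC827 and near its control level in PC-9, at 8.60 and 10.84 in HCC827 and 8.20 and 8.35 in PC-9. SDCBP2, syntenin 2, was higher in HCC827 (10.94 and 12.34) and stood lower with erlotinib in PC-9 (9.42 and 8.58), and its probes may also read a transcript joined to FKBP1A. In all 195 genes stood at least 1 above PC-9 in difference and 95 at least 1 below, 3.72% of the genes compared, and none of these distances was tested.

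EGF in H322 is the converse treatment of the same receptor. It gave 11 genes at least 2-fold higher of 9107 (0.121%) and 9 lower (0.0988%). Of the 305 lower genes of HCC827, 5 were higher with EGF, 1.64% of the HCC827 list and 45.5% of the EGF list. FOSL1 was at 8.41 and 10.61 in H322, AEN, a p53-induced nuclease, at 9.74 and 10.83, and the integrin gene ITGA2 at 10.16 and 11.26. FHL2, a LIM protein, was at 8.31 and 9.35, and SLC25A22, a mitochondrial glutamate carrier, at 7.98 and 8.99. CXCL10 (12.84 and 11.72) and CNNM2 (8.49 and 7.46) were higher in HCC827 and lower with EGF, and MMP7 was higher in both (7.77 and 9.08). The EGF difference had the opposite sign for 231 of 291 HCC827-higher genes (79.4%) and 189 of 225 HCC827-lower genes (84%), against 62.8% of all 7882 genes above the limit on the 4 arrays, and the differences correlated across genes at r = -0.40.

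**Figure D4:**
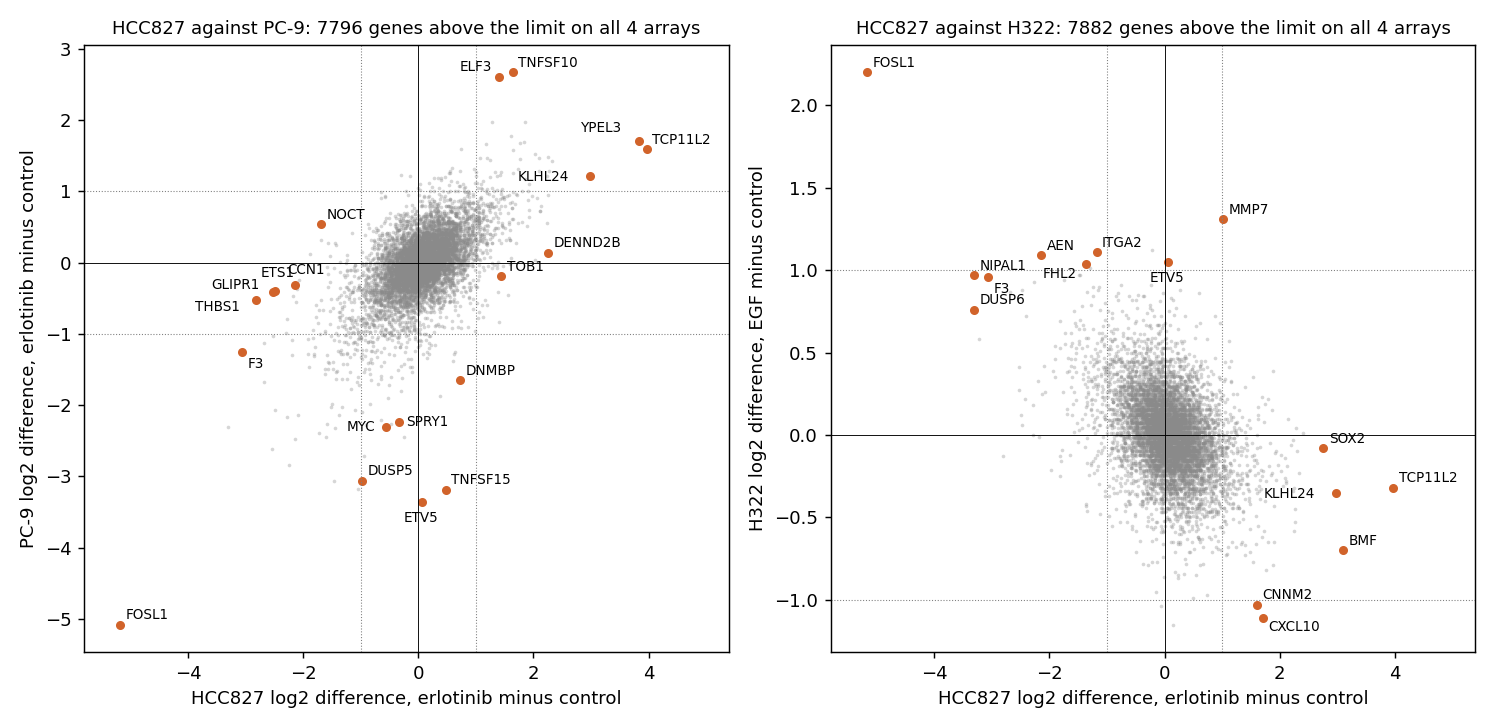
Log2 differences of HCC827 (x axis, erlotinib minus control) against those of PC-9 (left, erlotinib minus control) and of H322 (right, EGF minus control). Each point is a gene above the limit on all 4 arrays of the 2 lines, and dotted lines mark 2-fold. FOSL1 is the lowest point on the left and the highest on the right, and ETV5 and TNFSF15 lie near 0 in HCC827 and far below 0 in PC-9.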

How the data were processed

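Per the labels' protocols, RNA of the 6 cultures was biotin-labelled for Clarion S arrays. The deposited intensities are linear probe set values. Per the submitters' processing notes the authors used Affymetrix Expression Console, with version, background correction, summarisation and scaling not given in the sources used here. From these intensities log2(value + 1) was taken for 24351 probe sets. Of these, 17709 have 1 gene symbol, 0 several and 6642 none; all 17709 matched RefSeq by gene identifier, and of 20 genes with several probe sets the brightest was kept, leaving 17687 genes. A signal below the 95th percentile of the negative controls was raised to it before differences were taken, and a gene below it on both arrays has no fold. A gene counts at 2-fold or more. With 1 array per condition there is no replicate error and no test, and precision is limited by the number of arrays.

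The members, the 38 gene lists (33 of pathways and 5 of markers) and the rule for named genes were chosen with earlier results of these data known. The rule takes the 15 highest and 15 lowest genes, the 8 largest bounds each way, the 10 genes most above and most below PC-9, the 6 largest each way not above background in PC-9, genes opposed by EGF in H322, and up to 5 members of each list plus those at least 1 apart from PC-9. Marker genes, genes with FOXO letters and MMP7 were named besides it, after their values were seen. Promoters are from RefSeq (GRCh38.p14), 14250 of them matched by symbol. The script was tested on simulated data. Python 3.11.15, numpy 2.4.6, pandas 2.3.3 and matplotlib 3.10.9 were used. Alternatives were another offset, 2 other limits, 2 scalings, unbounded differences, both arrays above the limit and the mean of probe sets, with 2 more added after the data were seen.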

Additional observations from a re-analysis of the deposited data

Results flagged for a closer look

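With all 4 arrays above the limit, 9 genes were at least 2-fold apart in HCC827 while their PC-9 difference was at least 0.5 in the opposite direction. Each line has 1 array per condition, so the difference between the lines was not tested. Higher in HCC827 and lower in PC-9, as log2 differences, were SDCBP2 (1.40 and -0.84), CPEB4 (1.20 and -0.59), ARHGAP26 (1.16 and -0.53), SERPINB7 (1.13 and -0.76) and DUSP10 (1.10 and -0.59). TBC1D2B (1.05 and -0.69), TMC5 (1.03 and -0.78) and DNAAF9 (1.02 and -0.57) followed. NOCT went the other way, with -1.69 in HCC827 and 0.54 in PC-9.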

How the results depend on the processing

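With the limit at the 99th percentile, the lower genes of HCC827 numbered 136 in place of 305 and the higher genes 168 in place of 383; 24 and 23 of them were shared with PC-9, and the genes opposed by EGF numbered 0 and 1. An offset of 16 left 1 gene that was higher in HCC827 and lower with EGF, as did asking for a brighter array at least 2 above the limit, an alternative chosen after seeing the data. Unbounded differences gave 8 genes lower in HCC827 and higher with EGF; HCAR3 and TRIB2 then passed 2-fold in opposite directions in HCC827 and PC-9, and with the limit at the 90th percentile SNAI2 did too. Of the 74 higher and 89 lower genes among the list members and extremes, 41 and 43 kept their call with the 99th percentile, 68 and 66 with a brighter array at least 2 above the limit, and 64 and 76 when both arrays had to pass, which leaves out every gene given as a bound. With arrays centred on their medians 70 and 89 kept it, with quantile normalization 71 and 89, with an offset of 16 74 and 88, and with 1 limit for both arrays 74 and 85, an alternative also chosen after seeing the data. The other settings kept all of them. The cause was not tested, beyond that a higher limit leaves fewer genes. List medians changed sign across settings for the G1 cyclin, DNA replication, BCL2, ATF4, chemokine, NOTCH, WNT and urokinase lists. Among the medians that kept their sign and moved by at least 1.5 times were those of the ERK feedback inhibitors (-1.03 to -0.64), AP-1 subunits (0.34 to 0.51), EGFR-family ligands (-2.41 to -1.28), cytokines (-1.14 to -0.67), FOXO targets (0.55 to 0.95), TGF-beta, BMP and ID genes (0.11 to 0.47), YAP and TEAD targets (-0.30 to -0.07) and NRF2 targets (0.10 to 0.41). No paired analysis was possible because each condition has 1 array.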
